A study of Mus musculus with 2 samples.

Results

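The drug metabolism genes described here are the cytochromes P450 of families CYP2, CYP3 and CYP4, the UDP-glucuronosyltransferases (UGT), the cytosolic glutathione S-transferases (GST) and the sulfotransferases (SULT). They were chosen by gene symbol, and the CYP1 and CYP26 families were left outside. On the array 127 such genes were covered by 173 probes, out of 29913 genes by name and 39429 probes in all. The 127 comprised 75 CYP, 14 UGT, 20 GST and 18 SULT genes.

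Ureters were taken from wildtype NMRI mouse embryos at E12.5 and kept as explants for 18 h without fetal calf serum. The sex of the embryos had not been determined. The treated explants received 10 µM BIO (6-bromoindirubin-3-oxime), an indirubin that inhibits GSK3 and thereby activates canonical WNT signaling, and the control explants received DMSO alone, as 2 parts in 1000 parts of medium. RNA from pools of ureters was hybridized to 2 two-color arrays, each with BIO RNA in one channel and control RNA in the other, and the dyes were exchanged on replicate 2. All ratios below are BIO over control, on the log2 scale, as mean ± SE over n = 2 arrays. The SE is the moderated one of limma, which draws the variance of each probe toward a common prior. It is therefore no measure of the spread of the 2 arrays alone, for which the values of each array are given. A spot intensity is a bulk value, in which fewer cells of a type and less RNA per cell cannot be told apart.

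Drug metabolism runs in phases. In phase I, microsomal P450 enzymes oxidize lipophilic compounds with electrons from cytochrome P450 reductase and cytochrome b5. In phase II, UGT, GST and SULT enzymes couple the products, or the compounds themselves, to glucuronic acid, glutathione or sulfate, which makes them water-soluble, and export pumps carry the conjugates out of the cell. The same enzymes act on endogenous substrates such as steroids, fatty acids, bilirubin and lipid peroxides. The liver, intestine and kidney are known for their high content of these enzymes, whereas many members of the P450 families are hardly used elsewhere.

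With BIO, 23 of these genes fell and 1 rose at an adjusted p below 0.05 (limma), while 50 of the 74 tested were not called. The falls lay in the Ugt2b genes, in the alpha, mu and theta GST, in Sult1a1, Sult1d1, Sult2b1 and Sult4a1, and in Cyp2s1, Cyp4v3, Cyp4b1 and the pseudogene Cyp4b1-ps2. Ugt2b34 fell most, by 3.17 ± 0.25 on the log2 scale, which is 8.97-fold. The only rise was that of Cyp2d26, by 0.44 ± 0.11. Of all 21598 tested genes, 23.9% were called as changed, 14.8% fell and 9.14% rose, against 31.1% of the tested drug metabolism genes that fell. Over the 74 genes the log2 ratio had a median of -0.12 (-0.10 on the array of replicate 1, -0.17 on that of replicate 2), against -0.01 over all tested genes. Below 0 on both arrays were 40 of the 74, or 54.1%, against 38.1% of all tested genes. The members are no independent draws, since neighboring paralogs share sequence and position.

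A gene was tested when its brightest probe was well above background, as marked by the scanner software, on both arrays in at least one of the groups. In the data this was met by the control channel in all 74 cases, and 10 of the 74 were not well above background in the BIO channel of at least 1 array. Such a gene can enter the test by being higher in control. Among the 64 genes well above background in all 4 channels, 20 fell, or 31.2%, against 14.7% of the 20253 genes of that kind on the whole array. The deposited table of rounded scores gave other counts, with 5 falls and 3 rises among the 74 genes, of which 4 were among the 24 called here. By these scores 6.76% of the members fell, against 6.11% of all tested genes, and 7 of its 8 calls had the same rounded score on both arrays.

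**Figure D1:**
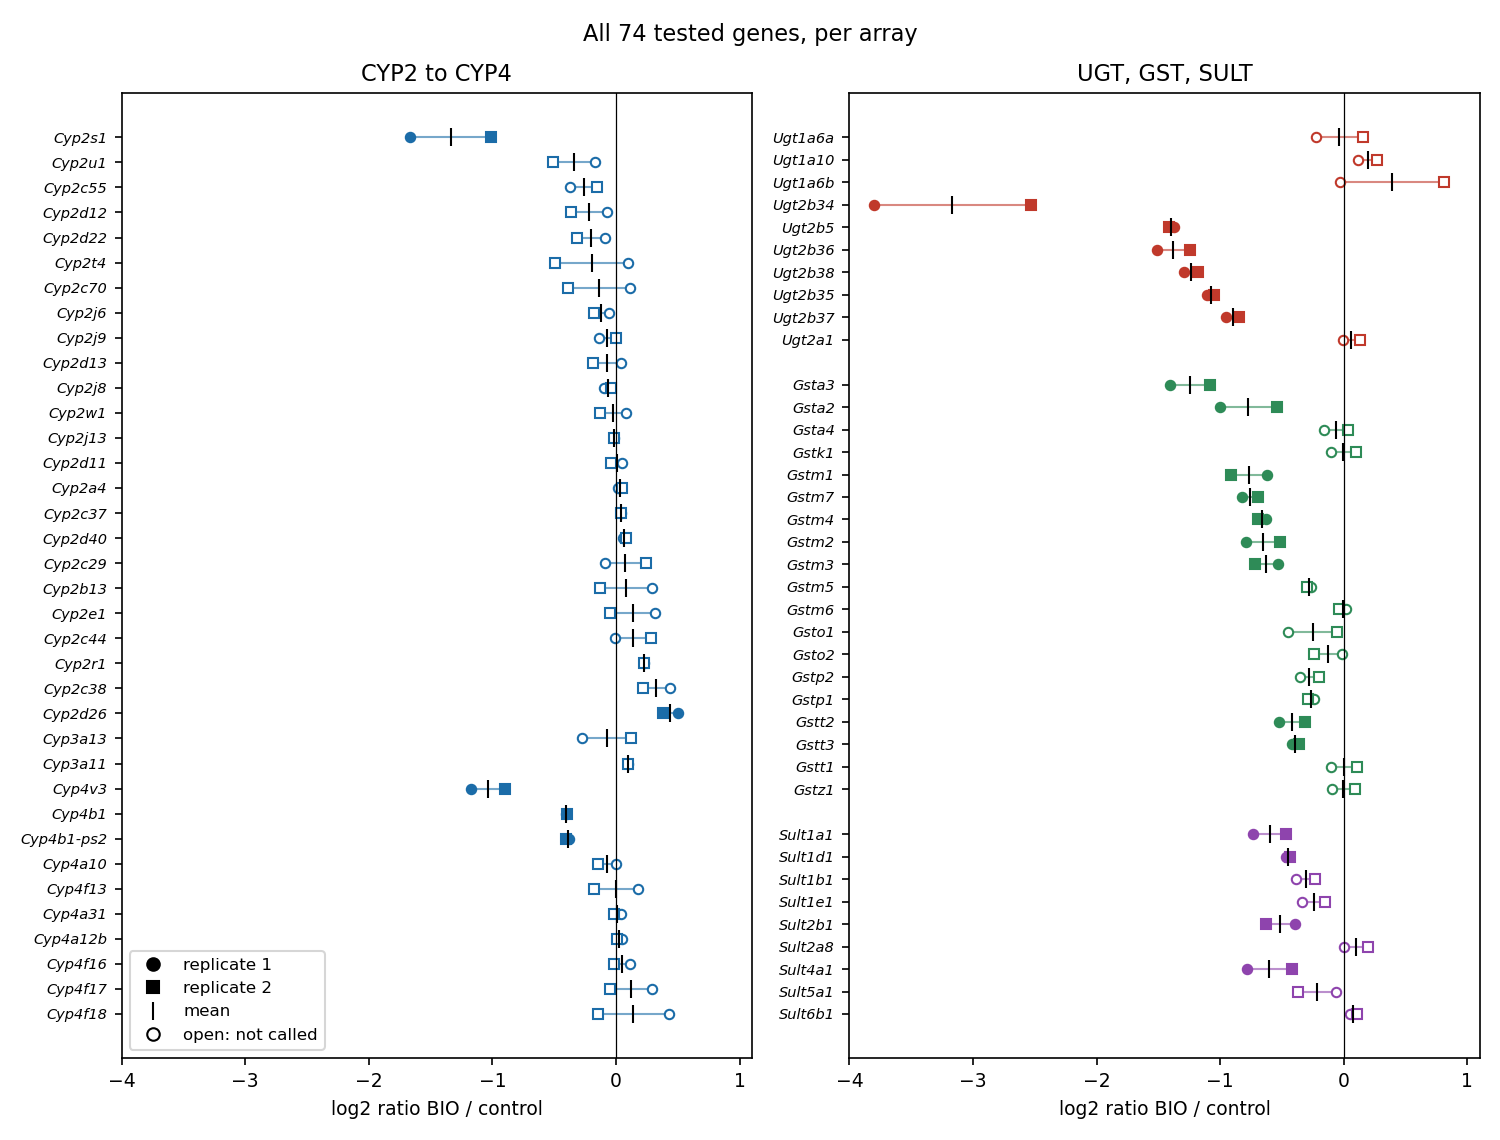
Log2 ratios of BIO over control (x axis) for the 74 tested genes (y axis), with CYP genes on the left and UGT, GST and SULT genes on the right. Circles are replicate 1, squares are replicate 2, ticks are the mean, and filled symbols were called as changed (limma, adjusted p below 0.05). The 6 tested Ugt2b genes all lie left of -0.80, whereas most CYP genes scatter around 0.

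The arrays as a whole set the precision. Depending on the channel, 70.1% to 80.9% of biological spots exceeded the background clearly, with the green channel ahead on both arrays. The median SE of a log2 ratio was 0.11, and across tested probes, which are not independent replicates, Pearson's r between replicates 1 and 2 was 0.801. The test estimates its prior from 1 residual degree of freedom per probe, so the threshold is approximate. With a prior of 4 degrees of freedom in place of the estimated 7.14, a setting chosen after seeing the data, 18 of the genes fell and 0 rose. The 6 calls lost in this way were those of Cyp2d26, Cyp4b1, Cyp4b1-ps2, Gstt2, Gstt3 and Sult1d1, and median centering instead of loess lost the same 6. The falls were then 24.3% of the members in both settings, against 9.53% of all tested genes with the prior of 4 and 8.99% with median centering.

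The detection of the families differed. Of the 75 CYP genes 36 were tested, whereas 19 of 20 GST, 10 of 14 UGT and 9 of 18 SULT genes were. Of the 127 genes together, 58.3% were tested, against 72.2% of all genes on the array. Of the 53 genes that were not tested, 38 were well above background in no channel of either array. The highest processed signal of any of the 53 was 15.6, near the floor of 15 that the intensity and fold rule described below sets on processed signals. These dim genes included 21 of the 45 CYP2 genes, 6 of the 8 CYP3 genes and 12 of the 22 CYP4 genes. CYP3 enzymes are the main drug oxidases of liver and intestine, and only Cyp3a11 and Cyp3a13 were tested here. The tested probe of Cyp3a11 is annotated to Cyp3a41a, Cyp3a41b and Cyp3a44 as well, and the probe for Cyp3a11 alone did not pass the filter.

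Cyp2s1 was the CYP gene with the largest fall. It encodes a P450 of epithelia outside the liver that is known to be inducible by ligands of the aryl hydrocarbon receptor. In replicate 1 its processed signal was 293 for control RNA against 83.4 for BIO RNA, and in replicate 2 it was 349 against 165. Both BIO values were below both control values. Such separation is described here and below only for genes already called as fallen, so it adds no support to the calls. Its share among all tested genes was not counted. The log2 ratios of the arrays were -1.67 and -1.01, with a mean of -1.34 ± 0.16 and an adjusted p of 0.000759 (limma). The probe (NM_028775) lies on chromosome 7 at 26587495 to 26587554 in mm9, and its first 30 bases are shown to identify the transcript measured.
Cyp2s1 probe: tagctgacctctttgtgacttgaaggttcc

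Cyp4v3, the mouse counterpart of a fatty acid omega-hydroxylase gene that is mutated in a human retinal dystrophy, went from a processed signal of 311 to 131 in replicate 1 and from 328 to 171 in replicate 2. Again the groups did not overlap. It fell by 1.04 ± 0.12 (adjusted p = 0.000635), with -1.18 and -0.90 on the arrays. Cyp4b1-ps2, listed as a pseudogene, went from 75.1 to 56.0 and from 79.5 to 55.6, a log2 ratio of -0.39 ± 0.11 (adjusted p = 0.0339). Cyp4b1 itself, a P450 of lung and kidney that acts on fatty acids and xenobiotics, was dim. Its processed signals were 17.7 and 19.9 in control and 6.58 and 7.74 with BIO, and it was not well above background with BIO on either array. The bound for Cyp4b1 was at least 1.26-fold lower with BIO and has no test, and its measured group means were 6.88 and 6.48 on the log2 scale. The call rests on its measured log2 ratio of -0.40 (limma, adjusted p = 0.0302).

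Cyp2d26 rose from 28.3 to 53.7 in replicate 1 and from 35.0 to 56.0 in replicate 2, with log2 ratios of 0.50 and 0.38 and an adjusted p of 0.0237. It belongs to a cluster of Cyp2d genes on chromosome 15. Its tested neighbors Cyp2d11, Cyp2d12, Cyp2d13, Cyp2d22 and Cyp2d40 were not called, with mean log2 ratios between -0.22 and 0.07. The probe (NM_029562) lies at 82620575 to 82620634 in mm9, and its first bases are given because it marks the single rise.
Cyp2d26 probe: ctatcagctctgtgcagtggctcgatagca

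The other 31 tested CYP genes were not called, and 15 of the 36 tested CYP genes had opposite signs on the 2 arrays. The median over the 36 CYP genes was -0.01 (0.04 on the array of replicate 1 and -0.05 on that of replicate 2), close to that of all tested genes. Cyp2r1, a vitamin D 25-hydroxylase, was at 0.23 ± 0.11 (0.23 and 0.22 on the arrays, adjusted p = 0.171). Cyp2j6, an epoxygenase of arachidonic acid, was at -0.12 ± 0.11, and Cyp4f16 at 0.05 ± 0.11. Cyp2e1, the P450 of ethanol oxidation, was at 0.32 and -0.05. The probe that represents Cyp2u1, a hydroxylase of long-chain fatty acids, was at -0.17 and -0.51, with a mean of -0.34 ± 0.12 (adjusted p = 0.0850). The other 2 probes of Cyp2u1 were at 0.12 and -0.03, so the probes of this gene disagree in sign, and the representing probe is annotated to an Ensembl transcript and to no RefSeq gene.

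Of the 7 tested UGT2 genes 6 fell, while Ugt2a1 and the 3 tested UGT1 genes were not called. Over all tested genes 14.8% fell. The difference between the families was not tested. All 6 that fell are Ugt2b genes, whose enzymes glucuronidate steroids, bile acids and drugs. The median log2 ratio of the tested UGT2 genes was -1.24. The 2 UGT3 genes on the array were not tested.

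The processed signal of Ugt2b34 went from 3049 (control) to 205 (BIO) in replicate 1 and from 3474 to 593 in replicate 2. The groups were far apart, while the BIO values of the 2 arrays differed from each other more than the control values did. The log2 ratios were -3.80 and -2.53 (adjusted p = 0.000133). With processed signals in place of background-corrected means the mean log2 ratio was -3.25. The probe (NM_153598) lies on chromosome 5 at 87318849 to 87318908 in mm9.

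Ugt2b5 went from 77.8 in control to 15.2 with BIO in replicate 1, and from 102 to 21.4 in replicate 2, and fell by 1.39 ± 0.11 (adjusted p = 0.000131). Ugt2b36 went from 104 to 20.7 and from 104 to 28.1, and fell by 1.38 ± 0.12. Ugt2b38 went from 112 to 35.2 and from 136 to 44.7, and fell by 1.24 ± 0.11. In each of these the BIO values of both arrays lay below the control values of both arrays. Ugt2b35 went from 76.6 to 23.8 and from 101 to 34.9, and fell by 1.08 ± 0.11, and a second probe of it fell by 0.79. Ugt2b37 went from 42.6 to 10.8 and from 57.7 to 20.5, and fell by 0.90 ± 0.11. For Ugt2b37 and for the second probe of Ugt2b35 the BIO channel was marked as well above background in replicate 2 only. The offset of 50 that was added to the intensities draws ratios of dim probes toward 0. With the processed signals, which carry no offset, the mean log2 ratios were -2.34 for Ugt2b5, -2.15 for Ugt2b36, -1.71 for Ugt2b38 and -1.65 for Ugt2b35.

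Since Ugt2b genes are close paralogs, their probes were set against each other. The 6 representing probes of 60 bases each were aligned without gaps in 15 pairs, and the median pair had 21 identical bases. The most alike pair was that of Ugt2b5 and Ugt2b37, with 46 identical bases out of 55 aligned. The probe that represents Ugt2b36 is annotated in the file to transcripts of both Ugt2b36 and Ugt2b37, so these genes are not fully separate measurements. A stretch of 30 bases from the most alike pair is shown together with the start of the Ugt2b34 probe, with capitals marking the bases at which Ugt2b5 and Ugt2b37 differ. The stretches lie on the minus strand of chromosome 5 in mm9, at 87554180 to 87554209 for Ugt2b5, 87669727 to 87669756 for Ugt2b37 and 87318879 to 87318908 for Ugt2b34.
Ugt2b5 probe: aactttcagcctcattctTatttatgaAcc
Ugt2b37 probe: aactttcagcctcattctAatttatgaGcc
Ugt2b34 probe: gtgtatgtatgtgattcatgtcccttttta

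The Ugt2 genes and 3 Sult1 genes form one stretch of chromosome 5, from 87318849 to 88005246 in mm9. Of its 12 drug metabolism genes, 10 were tested and 7 fell, while 14.8% of all tested genes fell. Ugt2b34 lies at one end of the stretch and Sult1e1 at the other, 686 kb away. From Ugt2b34 to Ugt2b38, every tested gene fell. Beyond it, Ugt2a1, a gene of the olfactory epithelium, was at 0.06 ± 0.11, Sult1b1 at -0.31 ± 0.11 and Sult1e1 at -0.24 ± 0.11, and none of these was called. Sult1b1 and Sult1e1 were called as fallen with the processed signals, although neither was well above background with BIO in replicate 1. Sult1d1, between them, fell by 0.45 and is described below. Of 9 other features tested within the stretch or 500 kb around it, 2 fell and 0 rose, with a median of -0.08.

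**Figure D2:**
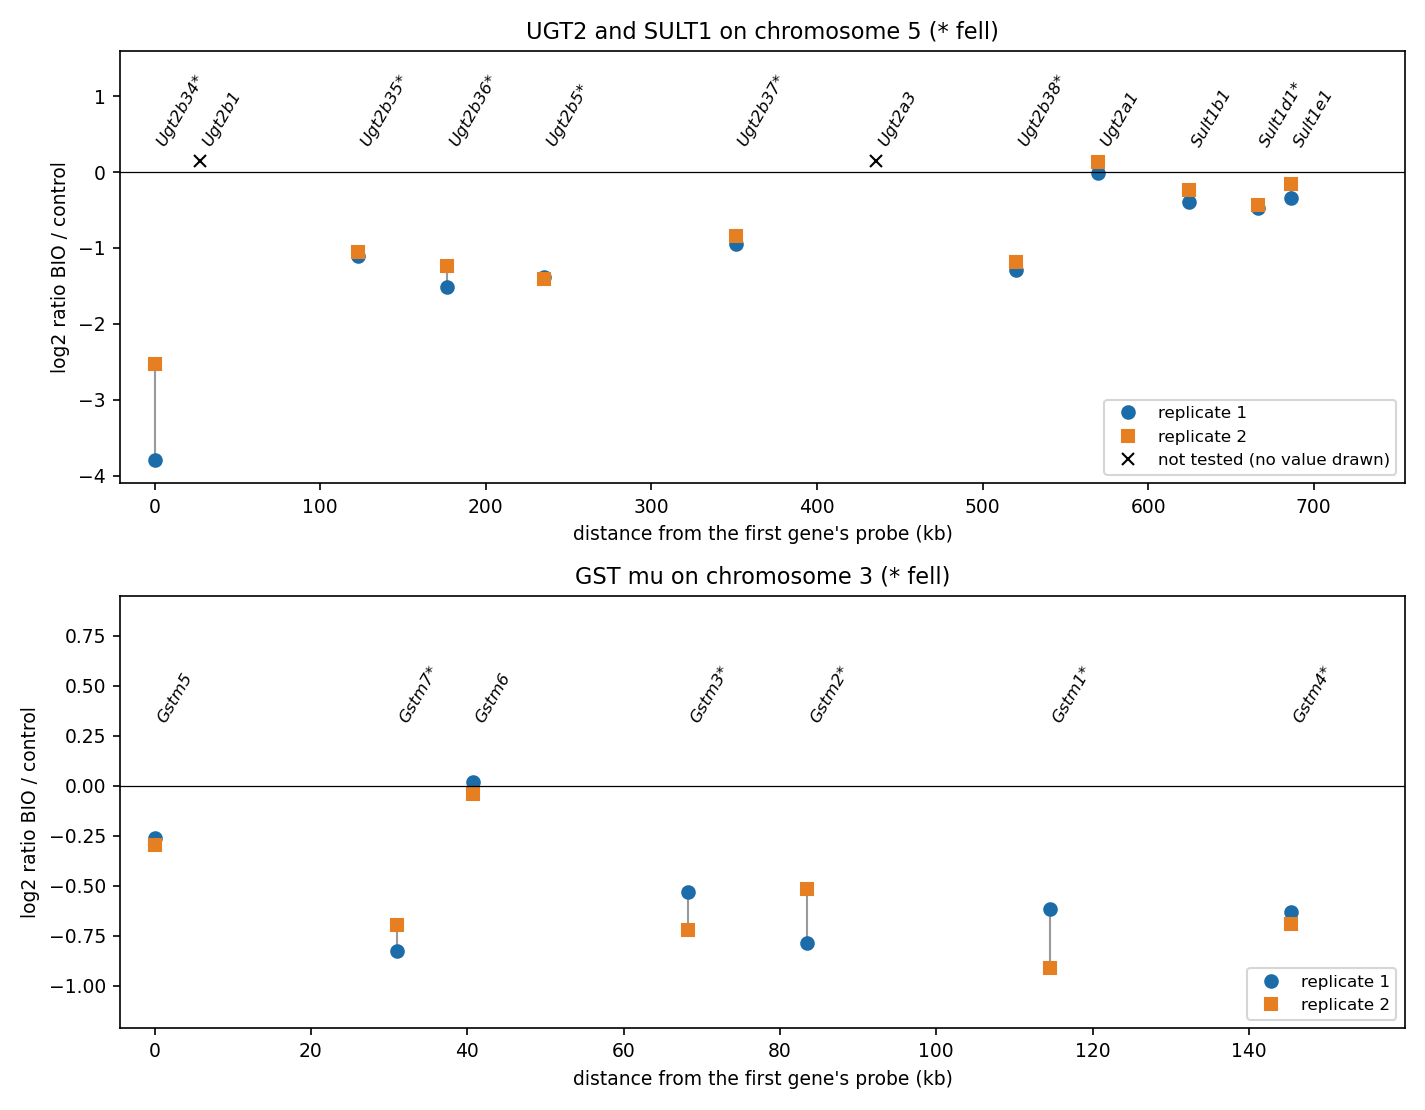
Log2 ratios of BIO over control (y axis) against the distance in kb from the first gene's probe (x axis) for the UGT2 and SULT1 genes on chromosome 5 (top) and the GST mu genes on chromosome 3 (bottom). Circles are replicate 1, squares are replicate 2, asterisks mark genes that fell, and crosses mark genes that were not tested. All tested Ugt2b genes and 5 of the 7 GST mu genes lie below -0.50 on both arrays.

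The UGT1 genes are read from one locus on chromosome 1 with alternative first exons and shared last exons, and the representing probes are annotated to between 2 and 4 UGT1 genes each. The probe that represents Ugt1a6b, annotated to 4 UGT1 genes, was at -0.03 in replicate 1 and 0.81 in replicate 2 (mean 0.39 ± 0.18, adjusted p = 0.164). Its processed signals were 547 and 521 in control and 576 and 953 with BIO, so that a difference was seen on 1 array only. A second probe, annotated to Ugt1a6b alone, was well above background in no channel and was not tested. Ugt1a10 was at 0.19 ± 0.11 and Ugt1a6a at -0.03 ± 0.13. UGT1 enzymes conjugate bilirubin and phenols, and several are known as targets of the aryl hydrocarbon receptor.

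While 14.8% of all tested genes fell, 9 of the 19 tested GST genes fell and none rose. Their median was -0.28 over both arrays, -0.42 in replicate 1 and -0.29 in replicate 2. The falls were in the alpha class (2 of 3 genes), the mu class (5 of 7) and the theta class (2 of 3 tested). None was called among the 2 omega, 2 pi, 1 kappa and 1 zeta genes.

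Gsta3, an alpha class enzyme that detoxifies the epoxide of aflatoxin in mice, had the largest fall of the GST genes. Processed signals were 4275 and 4377 for control RNA and 1641 and 2024 for BIO RNA. Replicates 1 and 2 gave log2 ratios of -1.41 and -1.08, with a mean of -1.24 ± 0.12 (adjusted p = 0.000322). A second probe of Gsta3 gave -1.27 ± 0.13. Gsta2 was dimmer, with 75.3 and 96.0 in control and 28.1 and 61.2 with BIO, and fell by 0.77 ± 0.13 (adjusted p = 0.00489). Gsta4, whose enzyme conjugates the lipid peroxidation product hydroxynonenal, was at -0.16 and 0.04, with a mean of -0.06 ± 0.11. The representing probe of Gsta3 (NM_001288617) lies on chromosome 1 at 21255043 to 21255102 in mm9 and starts as follows.
Gsta3 probe: attcaggcaactataagtacatagccccca

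The 7 mu class genes lie within 145 kb of chromosome 3, and their enzymes conjugate epoxides and quinones. Gstm1 went from 3460 to 2374 in replicate 1 and from 3577 to 1895 in replicate 2, with log2 ratios of -0.62 and -0.91. Gstm2 went from 7461 to 4471 and from 7941 to 5658. In both genes the BIO values of the 2 arrays were below those of control. The mean log2 ratios were -0.76 ± 0.12 for Gstm1, -0.76 ± 0.11 for Gstm7, -0.66 ± 0.11 for Gstm4, -0.65 ± 0.12 for Gstm2 and -0.63 ± 0.11 for Gstm3, with adjusted p values from 0.00203 to 0.00576. All tested probes of Gstm1 (2), Gstm2 (3) and Gstm7 (2) fell, whereas the second probe of Gstm4 was at -0.29 ± 0.11 and was not called. The second Gstm1 probe is placed on chromosome 5 in the file, away from the cluster. Gstm5, at the end of the cluster, was at -0.26 and -0.29 (mean -0.28 ± 0.11, adjusted p = 0.102), and Gstm6 was at 0.02 and -0.04. The most alike probes of 2 mu genes, those of Gstm3 and Gstm7, shared 40 of 59 aligned bases. Of 27 other features tested within the cluster or 500 kb around it, 2 fell and 4 rose, while 14.8% of all tested genes fell and 9.14% rose. The probe of Gstm1 (NM_010358) lies at 107815595 to 107815654 in mm9, and its first bases are printed as those of the mu cluster.
Gstm1 probe: atcgcaacacctatattttcaaagatggcc

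Gstt2 and Gstt3 of the theta class fell, with log2 ratios of -0.42 ± 0.11 and -0.39 ± 0.11 (adjusted p = 0.0314 and 0.0338), close to the threshold. Neither call held with the processed signals or with an offset of 16. Gstt1 was at 0.00 ± 0.11. The pi class genes Gstp1 and Gstp2, whose enzyme is abundant in many epithelia, were at -0.26 ± 0.11 and -0.28 ± 0.11, with adjusted p values of 0.117 and 0.110. Their values were below 0 on both arrays, at -0.24 and -0.29 for Gstp1 and at -0.36 and -0.20 for Gstp2. Gsto1, an omega class thioltransferase, was at -0.45 and -0.05 (mean -0.25 ± 0.13). Gstz1, the zeta class enzyme of tyrosine breakdown, was at -0.01 ± 0.11, and Gstk1 of mitochondria and peroxisomes at 0.00 ± 0.11.

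Of the 9 tested SULT genes 4 fell and none rose, with a median of -0.31, while 14.8% of all tested genes fell. The 4 include Sult1d1, whose call did not hold with median centering or with the prior of 4 degrees of freedom. Sult4a1, a brain-enriched member without a known substrate, went from 481 to 293 in replicate 1 and from 577 to 432 in replicate 2. It fell by 0.60 ± 0.13 (adjusted p = 0.0109), and a second probe fell by 0.54. Sult1a1, the phenol sulfotransferase, went from 69.1 to 34.7 and from 72.6 to 45.6, and fell by 0.60 ± 0.12 (adjusted p = 0.00835). A second probe of Sult1a1 fell by 0.79, and with BIO it was well above background in replicate 2 only. Sult2b1, which sulfates cholesterol and other hydroxysteroids, went from 94.6 to 71.9 and from 121 to 73.5, and fell by 0.52 ± 0.12 (adjusted p = 0.0146). For these 3 genes no BIO value reached a control value of the same gene. The probe of Sult4a1 (NM_013873) lies on chromosome 15 at 83906546 to 83906605 in mm9 and begins as printed here.
Sult4a1 probe: agtactgtacggatgttctggaaccacaca

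Sult1d1, a sulfotransferase of catecholamines, was not well above background with BIO on either array. Its processed signals were 11.0 and 15.5 in control and 2.71 and 4.18 with BIO. The bound was at least 1.13-fold lower with BIO and has no test, with measured group means of 6.69 and 6.24 on the log2 scale. The call of Sult1d1 rests on its measured log2 ratio of -0.45 (limma, adjusted p = 0.0194). The other tested SULT genes were Sult1b1, Sult1e1, Sult2a8, Sult5a1 and Sult6b1, with mean log2 ratios between -0.31 and 0.10, and none was called.

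**Figure D3:**
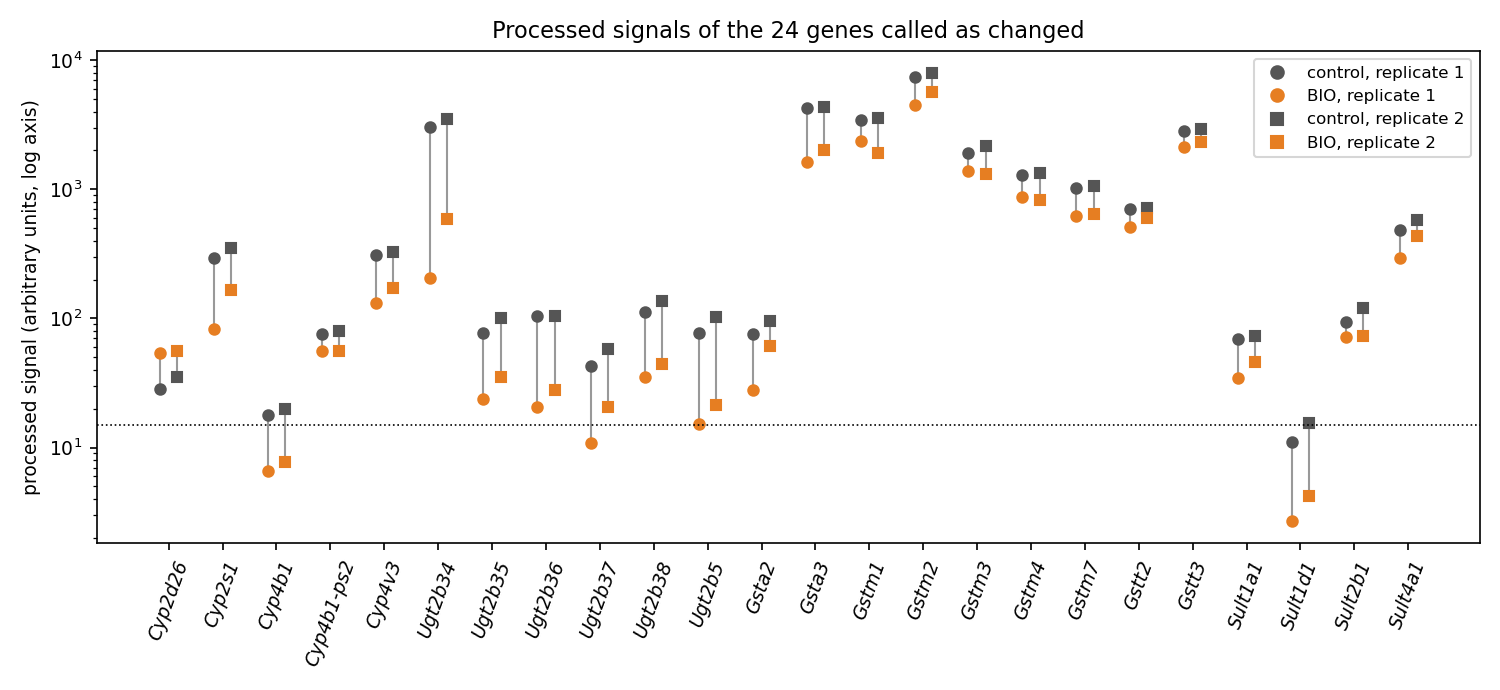
Processed signals (y axis, log scale, arbitrary units) of the 24 genes called as changed (x axis), in control (gray) and with BIO (orange), for replicate 1 (circles) and replicate 2 (squares). The dotted line is the floor of 15 that the intensity and fold rule sets. Signals of different genes come from different probes and are not comparable, while within a gene each pair shows the difference, from 3049 to 205 for Ugt2b34 in replicate 1 to 28.3 and 53.7 for Cyp2d26.

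By the intensity and fold rule, which asks for at least 2-fold in one direction on both arrays and a processed signal of at least 100 in the brighter channel, 5 of the genes were lower and 0 higher. They were Ugt2b34, Ugt2b36, Ugt2b38, Gsta3 and Cyp2s1. Of all tested genes 3.08% passed the rule, 2.04% as lower and 1.04% as higher. The rule has no test. Without the minimum signal 8 genes were lower.

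**Figure D4:**
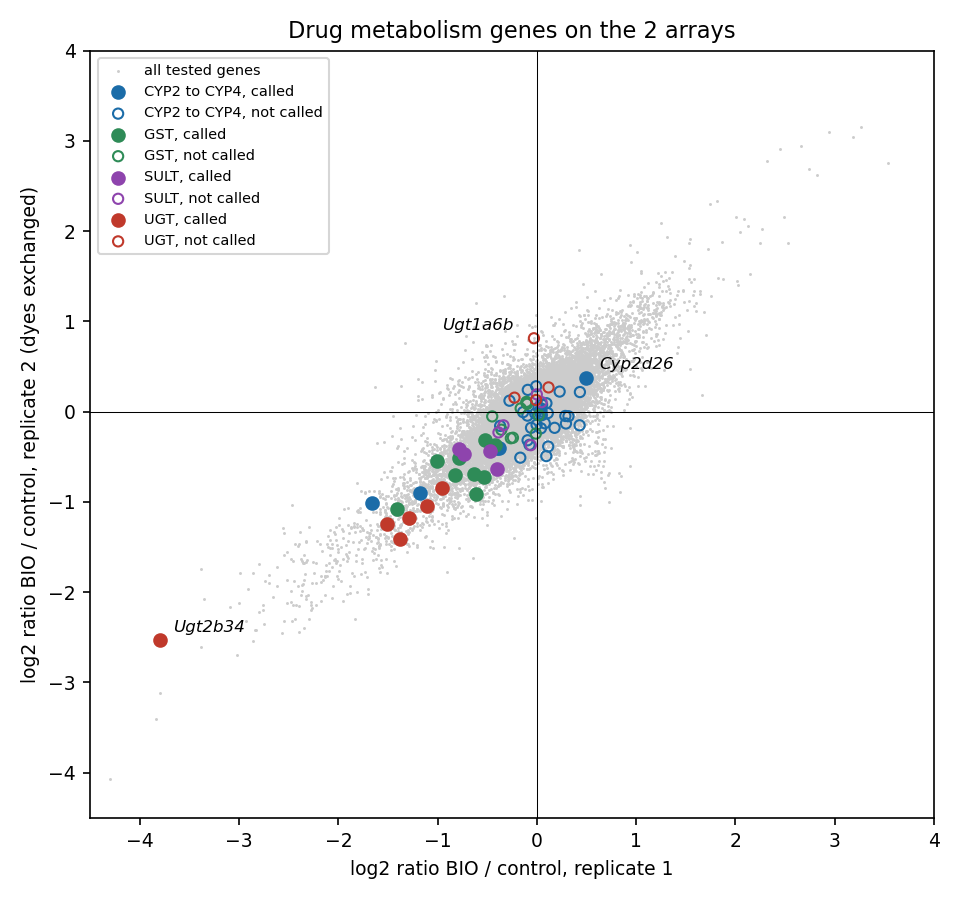
Log2 ratio of BIO over control in replicate 1 (x axis) against replicate 2, in which the dyes were exchanged (y axis). Gray points are all 21598 tested genes, and colored points are the 74 drug metabolism genes by family, filled where called. Ugt2b34 lies at -3.80 and -2.53, and Ugt1a6b at -0.03 and 0.81.

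Promoter windows were examined for letters of known binding motifs. RefSeq promoter windows of 300 bases (250 before and 50 after the gene start, GRCm38.p6) were matched for 101 of the 127 genes. The letters searched on both strands were GCGTG (core of the aryl hydrocarbon receptor site), TGACNNNGC (core of the antioxidant response element), CTTTGA (core of the TCF/LEF site) and GTTAAT (part of the HNF1 site). The genes that fell had 25 windows from 20 genes, since some genes have several starts, and windows of the same gene can overlap. GCGTG was in 7 of the 25 windows and in 32.4% of all 32851 windows. TGACNNNGC was in 2 of the 25 and in 12.4% of all, CTTTGA in 5 of the 25 and in 5257 of the 32851, and GTTAAT in 3 of the 25 and in 7.10% of all. Of the 6 Ugt2b windows, 2 held CTTTGA, namely those of Ugt2b35 and Ugt2b36, and none held the other letters. A match is a description of the letters and shows no binding.

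Windows are printed for Ugt2b34 as the largest fall, for Ugt2b36 with 2 matches to CTTTGA (starting at bases 111 and 172), for Gsta3 with matches to TGACNNNGC (base 130) and GTTAAT (base 102), and for Gstm1 with a match to GCGTG (base 20). Bases are counted from 1 at the 5′ end of the window, capitals mark the matches, and no match overlaps another in these windows. In GRCm38.p6 the windows are chr5:86906888-86907187 (minus strand) for Ugt2b34, chr5:87092506-87092805 (minus strand) for Ugt2b36, chr1:21240335-21240634 (plus strand) for Gsta3 and chr3:108017769-108018068 (minus strand) for Gstm1, which has a second start in the table.
Ugt2b34 promoter: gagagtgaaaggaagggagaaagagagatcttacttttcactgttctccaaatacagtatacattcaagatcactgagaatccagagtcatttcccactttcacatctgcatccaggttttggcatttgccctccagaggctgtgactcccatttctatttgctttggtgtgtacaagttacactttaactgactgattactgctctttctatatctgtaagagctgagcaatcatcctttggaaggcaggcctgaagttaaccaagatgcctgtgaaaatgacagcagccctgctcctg
Ugt2b36 promoter: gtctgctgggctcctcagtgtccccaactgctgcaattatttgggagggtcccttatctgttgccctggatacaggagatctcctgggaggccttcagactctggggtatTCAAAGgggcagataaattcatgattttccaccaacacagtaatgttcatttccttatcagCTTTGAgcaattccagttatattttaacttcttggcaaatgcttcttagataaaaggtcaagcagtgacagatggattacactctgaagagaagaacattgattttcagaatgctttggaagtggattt
Gsta3 promoter: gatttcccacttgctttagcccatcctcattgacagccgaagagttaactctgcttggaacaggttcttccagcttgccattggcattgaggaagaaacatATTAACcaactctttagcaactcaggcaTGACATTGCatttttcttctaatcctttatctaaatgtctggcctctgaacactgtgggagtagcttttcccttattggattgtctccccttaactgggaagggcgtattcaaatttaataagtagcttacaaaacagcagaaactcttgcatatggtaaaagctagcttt
Gstm1 promoter: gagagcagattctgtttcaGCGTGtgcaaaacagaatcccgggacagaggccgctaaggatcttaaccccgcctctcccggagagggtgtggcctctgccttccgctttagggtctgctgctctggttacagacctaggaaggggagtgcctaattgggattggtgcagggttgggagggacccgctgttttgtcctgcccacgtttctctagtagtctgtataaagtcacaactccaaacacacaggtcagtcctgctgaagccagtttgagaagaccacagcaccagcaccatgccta

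The enzymes need cofactors, and genes around the supply, transport and use of these were examined as lists. Over all tested genes 23.9% were called as changed, 14.8% as fallen and 9.14% as risen. The counts of the short lists, here and below, were not tested against these shares. Of the 48 called genes of these lists and of the cell type markers below, 16 lost their call with the prior of 4 degrees of freedom. Median centering lost the calls of 15 of the 48, and no call reversed. For P450 electron supply, 2 of 7 genes fell and none rose (median -0.18). Cytochrome b5 reductase Cyb5r3 fell by 0.65 and cytochrome b5 Cyb5a fell by 0.49, whereas the reductase Por was at 0.20 ± 0.11. Of the 5 genes listed under UDP-glucuronate supply, not all of which make it, 2 fell. They were Slc35b1, listed as a nucleotide carrier of the endoplasmic reticulum, with -0.80 and Ugp2, which makes UDP-glucose, with -0.43. Ugdh, which makes UDP-glucuronate, was at 0.04 ± 0.12, Slc35d1 at 0.15 and Uxs1 at 0.17, and none of these was called. For supply and removal of PAPS, the sulfate donor, 0 of 6 were called. Papss2, one of the PAPS synthases, was at -1.09 and -0.02 on the arrays.

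In glutathione supply and recycling, 1 of 11 genes rose and 2 fell, with a median of -0.17. The rise was that of the cystine carrier Slc7a11, by 0.41 (limma, adjusted p = 0.0333), close to the threshold. The falls were those of Chac1, which degrades glutathione, with -0.72 and of the peroxidase Gpx4 with -0.52. The glutathione synthesis genes Gclc, Gclm and Gss were not called, at 0.07, -0.21 and -0.08. Among 6 microsomal GST and related genes only Alox5ap, a helper protein of leukotriene synthesis, was called, with -0.56. Of 13 tested other phase I and II enzymes 3 fell, namely the flavin monooxygenase Fmo5 with -1.18, the epoxide hydrolase Ephx2 with -0.48 and the acetyltransferase Nat1 with -0.45. Of 8 export pumps 2 fell, Abcg2 with -0.58 and Abcc5 with -0.41 (limma, adjusted p = 0.0317 for Abcc5).

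The CYP1 family, which is not among the 127 genes, moved the other way. Cyp1a1 went from 498 to 2537 in replicate 1 and from 353 to 2740 in replicate 2, and rose by 2.55 ± 0.13 (adjusted p = 3.24e-05). Cyp1b1 rose by 2.09 ± 0.11, and Cyp1a2 was not tested. Both are textbook targets of the aryl hydrocarbon receptor, for which indirubins are known ligands. Among 12 tested xenobiotic sensor genes 2 fell and 1 rose. Pparg fell by 1.54, the glucocorticoid receptor gene Nr3c1 fell by 0.61, and the estrogen receptor gene Esr1 rose by 1.11, with 0.43 and 1.79 on the arrays. Ahr, its partner Arnt and the oxidative stress factor Nfe2l2 were at 0.06, -0.03 and -0.06 and were not called, and the pregnane X receptor gene Nr1i2 was not tested.

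**Figure D5:**
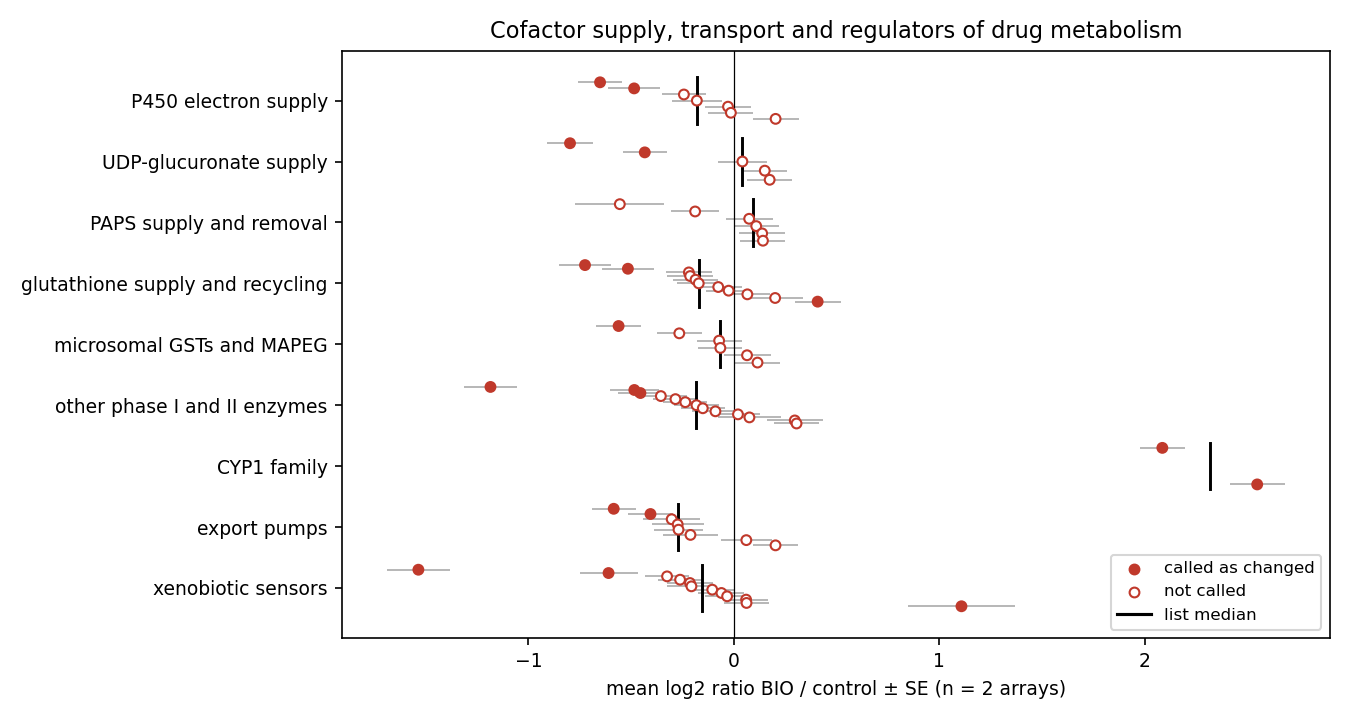
Mean log2 ratio of BIO over control ± moderated SE of limma, n = 2 arrays (x axis), for the tested genes of 9 lists around drug metabolism (y axis). Filled points were called as changed, and black bars are list medians. Only the CYP1 list lies clearly to the right, with a median of 2.32.

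Markers of the cell types in or near the explant also moved with BIO, and their part in the falls of the drug metabolism genes was not tested. The summed signals below add different probes, so the brightest genes weigh most in them, and they do not measure the amount of a cell type. All 8 endothelial markers fell, and their summed processed signal was 26192 and 31559 in control and 5031 and 9348 with BIO. Of 8 ureteric mesenchyme markers 7 fell (sums of 252140 and 276516 against 160655 and 176274), and of 8 ureteric epithelium markers 4 fell (86434 and 87278 against 50804 and 60593). Epcam, Cldn7, Gata3 and Grhl2 of the epithelium were not called. The brightest genes in the epithelium sum were Krt8 and Krt18, at 28018 and 28778 in control of replicate 1. Of 7 tested macrophage markers 4 fell (6021 and 6832 against 4525 and 6299), and of 6 erythroid markers 3 fell (76413 and 86800 against 55943 and 49693). Of 6 tested markers of kidney tubules and nephron progenitors 1 fell and 1 rose (10063 and 9757 against 8633 and 10691). Liver markers were dim, with sums over all 8 genes of 129 and 154 in control and 81.2 and 97.0 with BIO, and Ttr, Apoa1, Fgb and Ahsg were not well above background. Alb and Afp fell, and Alb went from 34.2 to 8.93 in replicate 1 and from 44.8 to 14.1 in replicate 2.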

How the data were processed

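Per the file headers, the authors scanned 2 two-color Agilent arrays with 4 spots per probe and quantified them with Agilent Feature Extraction (version 10.7.3.1 in the submitters' processing notes). The deposited scanner tables give mean and background intensities without normalization, processed signal intensities that the software had background-subtracted and dye-normalized, and marks (1 or 0) for spots well above background and for outlier spots. The authors also deposited a score per probe and array, a signed fold change rounded to 1 decimal that correlates with the processed ratios at 0.997 and 0.996 over bright probes. Its column median was 1, and its centering is unknown.

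Intensities were corrected by normexp (offset 50) and normalized by within-array loess in limma 3.58.1 (R 4.3.3). Control and outlier spots were left out, and the remaining spots were averaged per probe. For a probe to count as well above background in a channel, more than 0.5 of these spots had to be marked so. Genes were represented by their probe with the highest mean intensity. The replicate 2 ratio was turned, and the 28824 tested probes were fitted with lmFit and eBayes (two-sided, Benjamini-Hochberg over all of them, 0.05, prior of 7.14 degrees of freedom and SD 0.16). With 2 arrays, fitting the dye too leaves no residual degrees of freedom, so it was left out. A bound sets the mean of the brighter group against that of the dimmer one, after Aquantile normalization between the arrays. Values of the dimmer group below the lowest well-above-background signal of their channel are first raised to it. The scripts were tested on simulated data. Coordinates are those of mm9, as in the files, and promoter windows and names are from RefSeq (GRCm38.p6). All 173 probes had a sequence, 23 are annotated to several RefSeq genes and 6 to none.

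Every called gene and the 10 brightest uncalled genes were named, with list genes where called. The members, lists and markers were chosen with earlier results of these data known. The promoter motifs and the genes whose sequences are printed were chosen after their values were seen, as were the other uncalled genes and list genes named. The arrays shared 1 slide and 1 scan, so neither could act as a batch. Alternatives were the processed signals, median centering, an offset of 16, no filter on dim probes, outlier spots kept, the mean of a gene's probes, the deposited scores, other limits of the fold rule and of detection, single arrays and a prior of 4 degrees of freedom.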

Additional observations from a re-analysis of the deposited data

How the results depend on the processing

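No paired analysis was possible because no block remains beyond the array, which holds its own BIO and control RNA, so that the test of the ratios is itself the paired one. Among the 24 called genes, 18 kept their call under all 7 alternatives with a test other than the deposited scores, and no call of the 34 named drug metabolism genes reversed. With the deposited scores 8 genes were called, of which 5 fell and 3 rose, with a median of -0.0289 over the 74 genes. The rises numbered 2 with the processed signals, 0 with median centering in place of loess and 0 with the prior of 4 degrees of freedom, which was chosen after seeing the data. Without a filter on dim probes the median over all 127 genes was -0.0241. With 1 array alone the median lay between -0.17 and -0.10, with no test. The fold rule was passed as lower by 7 members at 1.5-fold (1044 of all tested genes), by 3 at 3-fold (160 of all), by 8 without a minimum signal (559 of all) and by 6 to 7 on 1 array alone (538 to 707 of all). Detection counts ranged from 71 to 89 of 127 genes, and from 83 to 88 on 1 array alone. The median of SULT2 turned to 0.0159 without a filter on dim probes. That of UGT1 was -0.0298 on the array of replicate 1 alone and 0.27 on that of replicate 2 alone, and the medians of CYP2, CYP3 and CYP4 also differed in sign between the arrays. The cause of these moves was not tested. With 2 arrays, precision is limited by their number, and probes near background carry the offset.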
